A study of Sus scrofa with 6 samples.

Results

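Fibroblast marker genes were examined in the left ventricular (LV) free wall of doxorubicin-injected and control piglets. The list held 10 genes, THY1, FAP, PDGFRA, PDGFRB, DDR2, TCF21, S100A4, CD248, DPT and PDGFRL. Every probe set whose single gene symbol in the platform annotation was one of these names was taken, which gave 11 probe sets for 7 genes, of 23999 probe sets tested. No probe set carries the symbol PDGFRA, DDR2 or CD248, and these 3 genes are not analysed here. The arrays were Affymetrix Porcine Genome Arrays, each hybridized with RNA of 1 Large White piglet. The control group were 3 piglets injected with PBS, and the treated group were 3 piglets given 1 intravenous dose of 2.0 mg/kg doxorubicin (Dox), an anthracycline anticancer drug that damages cardiac muscle. Both groups were injected at 8 days of age and sampled 3 weeks later, at 28 days, per the labels. The study's methods give a slightly different age and a range of doses. The model is a single exposure in growing neonatal animals, and the sex of the piglets is not given in the sources used here.

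Cardiac fibroblasts are interstitial cells that make and turn over the collagen network between cardiomyocytes. They descend largely from the epicardium under the transcription factor TCF21 and respond to platelet-derived growth factor through the receptor kinases PDGFRA and PDGFRB. After injury some of them become activated, take on contractile and matrix-producing features and can express FAP, a membrane protease. None of the markers is exclusive to fibroblasts. THY1 also occurs on other mesenchymal cells and on lymphocytes of some species, PDGFRB on pericytes, and S100A4 on many leukocytes.

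MAS5 signals are linear intensities, 1 per probe set and array. Differences are given on the log2 scale as Dox-injected minus PBS-injected, with limma fitted over all probe sets and p-values adjusted over all of them (Benjamini-Hochberg). The 17 Tag probe sets of the array carry sequences without a pig target, and their highest signal on an array lay between 2.5 and 6.3. A signal at or below that value is called within the Tag range. The cardiomyocyte genes MYH7, TNNT2 and TNNI3 were bright, at 5188 to 9785.6 on the 6 arrays, and all 7 measured markers were above the Tag range on every array at their brightest probe set. The median signal of an array lay between 13.5 and 17.8, lowest on Dox replicate 3. The hybridization spike-ins, which are added in a fixed amount, averaged 796 to 875 on the PBS arrays and 1004.4 to 1394.6 on the Dox arrays. Dox replicate 3 had the highest of these averages. Array weights estimated by limma, used only in an alternative fit, were lowest for the same array, at 0.328, against 0.631 to 2.139 on the others. Dox replicate 1 had the highest ratio of 3′ to 5′ signal, 2.93 for Gapdh and 6.04 for actin, against 1.18 to 1.68 and 1.96 to 3.96 on the other arrays. The part of these array properties in the differences was not tested. The number of arrays limits the precision throughout, and 3 animals against 3 cannot give an exact two-sided permutation p below 0.1.

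Of the 11 probe sets, 10 had a lower mean log2 signal after Dox and 1 a higher one. The size of the difference varied among the markers. THY1 and FAP were lower by more than 1 log2 unit at their brightest probe sets, PDGFRL and S100A4 were lower by 0.5 to 0.9, DPT and TCF21 by 0.29, and PDGFRB was level. With the study's threshold, a change of 2-fold or more together with an adjusted p no higher than 0.05, limma called 0 of the 11, against 0.0% of all probe sets. With an unadjusted p of 0.05 or less, 3 of the 11 were lower, where 5.92% of all probe sets were, and 0 were higher, where 3.62% were. The groups did not overlap for 2 of the 11, both lower in Dox-injected piglets, a pattern seen for 10.1% of all probe sets. The opposite pattern was seen for 6.19% of all probe sets and 0 of the 11. The 3 with such a p were the first and second probe sets of THY1 and that of FAP, so they stand for fewer genes. At the brightest probe set, 2 of the 7 genes were lower with such a p, against 6.61% of all genes. The groups did not overlap for 1 of the 7, lower, against 10.4%. The median log2 difference was -0.87 over the 11 probe sets and -0.56 over the 7 genes at their brightest probe set. Over all probe sets it was -0.10, and 57.1% of them were below 0. With 0 probe sets called, and with the markers chosen while earlier results of these data were known, no decrease is taken as established. In whole tissue, fewer fibroblasts, less marker RNA per fibroblast and a changed share of RNA from other cells cannot be told apart.

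**Figure D1:**
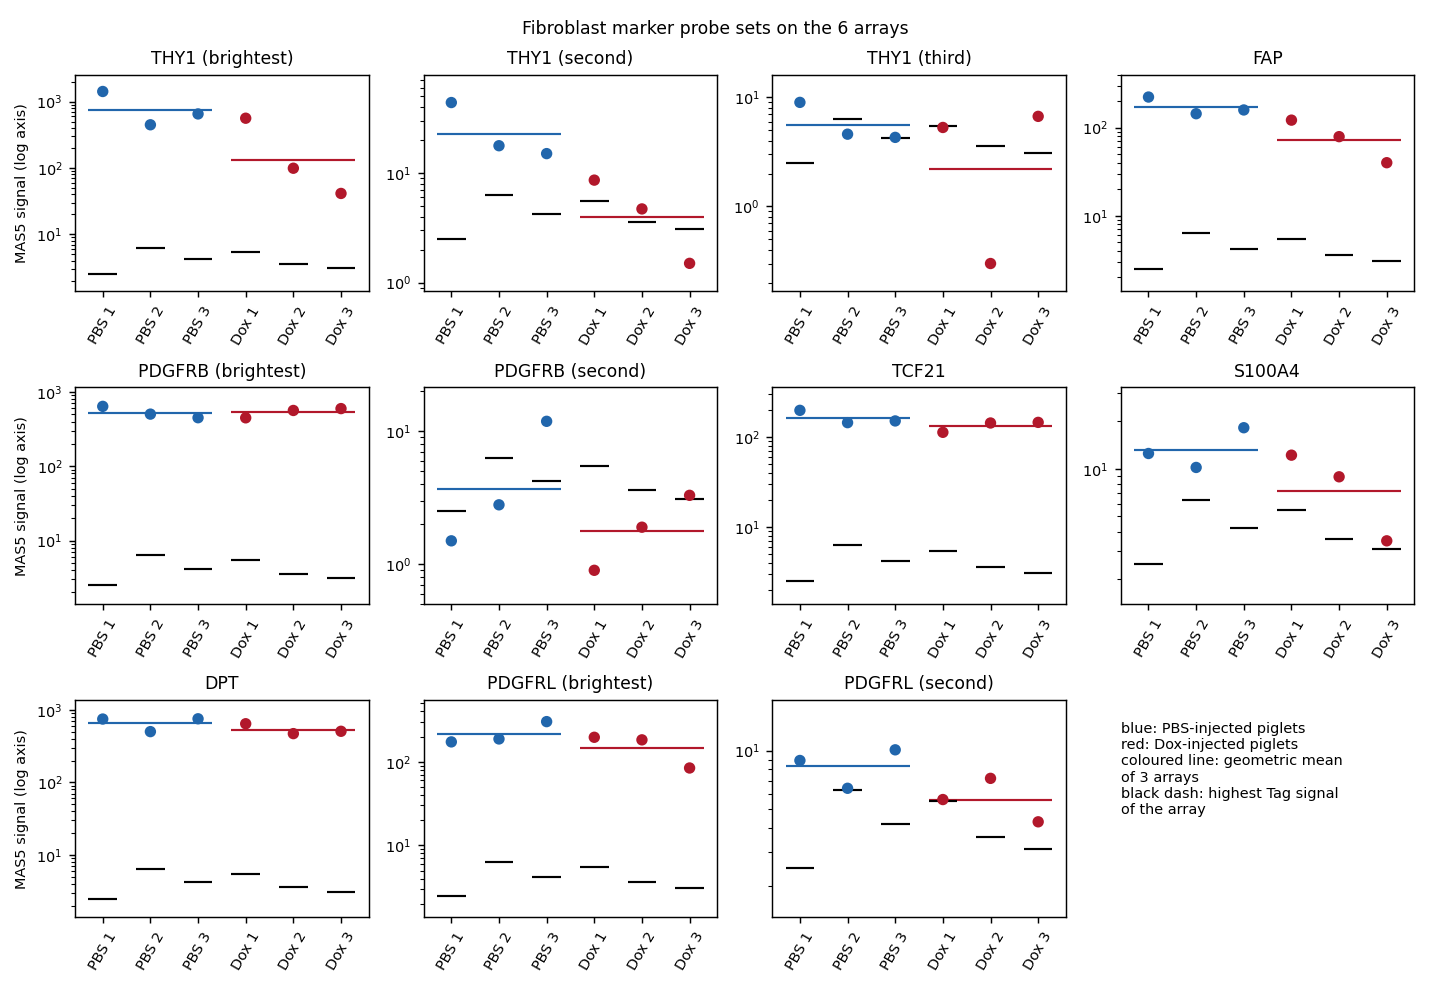
MAS5 signal (log axis) of the 11 fibroblast marker probe sets on each of the 6 arrays, controls in blue and treated animals in red; coloured lines mark geometric means of 3 arrays and black dashes the highest Tag signal of each array. The brightest THY1 probe set and FAP are lowest on Dox replicate 3, at 41.4 and 40, while the brightest PDGFRB probe set stays between 448.9 and 640.4.

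THY1, which encodes the surface glycoprotein CD90, had the widest range of the markers. At its brightest probe set the signal was 1419.4, 447.6 and 652 in PBS replicates 1 to 3 and 561.8, 99.2 and 41.4 in Dox replicates 1 to 3. Dox replicate 1 therefore lay among the controls, above PBS replicate 2, and the other 2 treated piglets lay far below all of them. Group means were 840 ± 512 and 234 ± 285 (SD, n = 3 each). On the log2 scale the treated group was lower, at -2.50 (standard error 0.85, limma adjusted p = 0.521), a 5.64-fold lower geometric mean. The groups overlapped, and the exact permutation test gave p = 0.2. Leaving out Dox replicate 3 gave -1.66, and leaving out Dox replicate 1 gave -3.54.

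A second THY1 probe set, 43.8, 17.7 and 15 in PBS-injected and 8.6, 4.7 and 1.5 in Dox-injected piglets, showed a difference of almost the same size. Here every treated piglet lay below every control. It amounted to -2.53 in log2 units (standard error 0.70, limma adjusted p = 0.521; exact permutation test, p = 0.1). The signal of Dox replicate 3 was within the Tag range, and with 1 array left out the difference ran from -3.09 to -1.83. The third THY1 probe set was dim, with signals of 0.3 to 9, and 3 of its 6 signals were within the Tag range. Its value of -1.35 (standard error 1.12, limma adjusted p = 0.686) rested on Dox replicate 2 and was 0.08 without that array. The first and the second THY1 probe sets ranked the treated piglets alike, with replicate 1 highest and replicate 3 lowest.

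FAP encodes fibroblast activation protein, a serine protease that is scarce in resting tissue and rises on activated stromal cells. Its signal was 222.3, 143.8 and 158.6 in PBS-injected and 121.6, 79 and 40 in Dox-injected piglets. Every treated piglet lay below every control, with Dox replicate 1 closest to them. The means were 175 ± 41.7 and 80.2 ± 40.8 (SD, n = 3 each), with a 2.36-fold lower geometric mean. FAP differed by -1.24 in log2 units (standard error 0.40, 95% confidence interval -2.15 to -0.33) and did not pass adjustment (limma, adjusted p = 0.521; exact permutation test, p = 0.1). Leaving out 1 treated animal gave -0.81 (replicate 3) to -1.61 (replicate 1).

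PDGFRB, the receptor kinase for PDGF-B shared by fibroblasts and pericytes, was the only marker without a lower signal at its brightest probe set. There the signal was 640.4, 503.5 and 450.4 in PBS-injected and 448.9, 563.9 and 597.6 in Dox-injected piglets. The groups covered the same range. Their log2 means differed by 0.02, with a 95% confidence interval of -0.45 to 0.49 (limma, adjusted p = 0.978), and its sign turned with quantile normalization and when single arrays were left out. A second probe set ranged from 0.9 to 11.9, with 4 of 6 signals within the Tag range, and no fold is read from it. The interval of the brightest probe set leaves out a 2-fold difference in either direction.

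PDGFRL encodes a secreted protein that resembles the ligand-binding part of the PDGF receptors. Its brightest probe set had signals of 172.7, 187.3 and 301.8 in PBS-injected and 196.1, 182.7 and 84.2 in Dox-injected piglets. Dox replicates 1 and 2 lay among the controls and Dox replicate 3 below them. PDGFRL differed by -0.56 (standard error 0.37, limma adjusted p = 0.617), a value that shrank to -0.18 without Dox replicate 3. The second probe set of PDGFRL, which read 6.4 to 10.1 in controls and 4.3 to 7.2 in treated animals, gave -0.58 (standard error 0.45, limma adjusted p = 0.668).

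TCF21 encodes the basic helix-loop-helix factor that marks the fibroblast lineage of the heart. Its signal was 199.7, 145.7 and 152.2 in PBS-injected and 113.7, 144.4 and 146.7 in Dox-injected piglets. The groups overlapped only in that Dox replicate 3 lay just above PBS replicate 2. TCF21 differed by -0.29 in log2 units (95% confidence interval -0.81 to 0.22, limma adjusted p = 0.664). Unlike THY1 and FAP, the lowest treated piglet was replicate 1. DPT encodes dermatopontin, a matrix protein that binds decorin and collagen. It had signals of 746.6, 500.8 and 752.8 in PBS-injected and 643.2, 470 and 506.1 in Dox-injected piglets, with overlapping groups. DPT too differed by -0.29 (95% confidence interval -0.80 to 0.21, limma adjusted p = 0.661).

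S100A4, a small calcium-binding protein also known as fibroblast-specific protein, was dim. Its signal was 12.5, 10.2 and 18.2 in PBS-injected and 12.2, 8.9 and 3.5 in Dox-injected piglets, in each case above the Tag range. Dox replicates 1 and 2 were near the controls and Dox replicate 3 lay apart. S100A4 differed by -0.87 in log2 units (standard error 0.54, limma adjusted p = 0.605), and by -0.35 without Dox replicate 3.

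**Figure D2:**
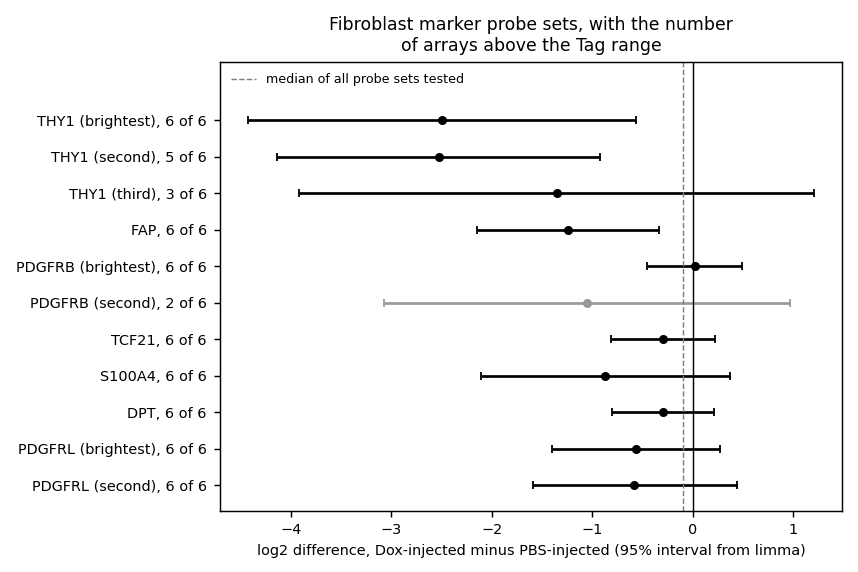
Log2 signal of treated minus control piglets at the 11 fibroblast marker probe sets, with 95% confidence intervals from limma before any adjustment; labels give the number of arrays above the Tag range, and the probe set in grey was above it on 2 of 6. The intervals of the first 2 THY1 probe sets and of FAP lie below 0, and that of the brightest PDGFRB probe set spans -0.45 to 0.49.

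Dox replicate 3 carried much of the difference for several markers. Relative to the control mean, it stood at -4.17 for THY1, -2.10 for FAP, -1.92 for S100A4 and -1.34 for PDGFRL on the log2 scale, all at the brightest probe set. For PDGFRB, TCF21 and DPT the same array stood at 0.19, -0.16 and -0.37. Dox replicate 1 was nearer to the controls, at -0.41 for THY1 and -0.50 for FAP. To set the markers against each other without the scale of the arrays, the log2 ratio of each pair of the 7 genes was taken within each array, a comparison chosen after the values were seen. Of 21 pairs, which share the same 7 genes, 3 did not overlap between the groups. For signals of single probe sets the share without overlap in either direction was 16.3%. No such share was computed for ratios of other gene pairs, so the 3 pairs are described and not taken as a difference among the markers. The ratio of FAP to PDGFRB was lower by 1.26 in Dox-injected piglets and that of FAP to DPT by 0.95. The ratio of PDGFRB to TCF21 was 1.57 to 1.79 in controls and 1.97 to 2.03 in treated animals. For each of these 3 pairs the exact permutation test gave p = 0.1 and 0.525 after adjustment over the 21 pairs. With 3 animals against 3 the test cannot give less than 0.1, so it could not single out a pair. The ratio of THY1 to PDGFRB was lower by 2.52 on average but overlapped (exact permutation test, p = 0.2).

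A wider list of 36 fibroblast and interstitial genes, mostly of the collagen network and its small proteoglycans, had 18 genes with a probe set. Of these, 17 were lower and 1 higher in Dox-injected piglets, with a median log2 difference of -0.65, where 56.0% of all 6765 genes were below 0 with a median of -0.07. Limma called 0 of the 18 after adjustment, 8 had an unadjusted p of at most 0.05, all lower, where 6.61% of all genes were lower with such a p. The groups did not overlap for 6 of the 18, all lower, where 10.4% of all genes showed that pattern. This list, like the others below, was chosen with earlier results of these data known, so its counts are not independent support. SERPINF1, which encodes pigment epithelium-derived factor, had the smallest p of the list, with signals of 465.1, 318.7 and 488.5 against 267.5, 137.4 and 150.2 (log2 difference of -1.24, standard error 0.30, limma adjusted p = 0.521). DCN encodes decorin, a proteoglycan that coats collagen fibrils. Its signals were 1712.9, 1450.3 and 1861.7 in controls and 1231.5, 853.1 and 661.8 in treated piglets, which differ by -0.91 in log2 units. FBN1, the gene of the microfibril protein fibrillin 1, differed by -1.35 at its brightest probe set and by -1.90 at the other. COL6A3, a chain of collagen VI, differed by -0.96. In all 4 of these genes every treated piglet lay below every control. COL15A1, a basement membrane collagen named here after its values were seen, had the lowest value of the list at -2.25, although Dox replicate 1, at 860.2, exceeded PBS replicate 2, at 838.1. VIM, the intermediate filament gene of mesenchymal cells, differed by -0.02 and the matricellular gene SPARC by -0.24. Both were named after their values were seen. The further DCN probe set lay within the Tag range throughout.

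Genes tied to fibroblast activation were divided. Of 22 listed, 12 had a probe set, 7 lower and 5 higher, with a median log2 difference of -0.12. With 1 array left out that median ran from -0.29 to 0.07. Limma called 0, and 2 of the 12 had a lower signal with an unadjusted p of at most 0.05, against 6.61% of all genes. The groups did not overlap for 1 of the 12, lower after Dox, against 10.4%. POSTN encodes periostin, a matrix protein of activated fibroblasts. Its signal was 404.4, 179.7 and 176.9 in PBS-injected and 168.8, 52.4 and 11.3 in Dox-injected piglets, so that all treated piglets lay below the controls. Its log2 difference of -2.34 (standard error 0.84, limma adjusted p = 0.521) was -1.32 without Dox replicate 3. The further POSTN probe set was dim, with 6 of 6 signals within the Tag range. FN1, the fibronectin gene, had signals of 1485.8, 553 and 647.2 against 608.9, 240.6 and 263, a log2 difference of -1.26 with overlapping groups. Its other probe sets gave -0.60 to -0.32, and only 1 of those 3 was above the Tag range. TIMP1, an inhibitor of matrix metalloproteinases, had signals of 263.9, 133.1 and 153.2 against 174.4, 254.5 and 673.1, a log2 difference of 0.82 that was 0.27 without Dox replicate 3. CILP, a matrix protein gene, differed by 0.59 at its brightest probe set and by -0.73 at a dimmer one. ACTA2, the smooth muscle actin of myofibroblasts and vessels, was named after its values were seen and differed by -0.31 (limma, adjusted p = 0.702).

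**Figure D3:**
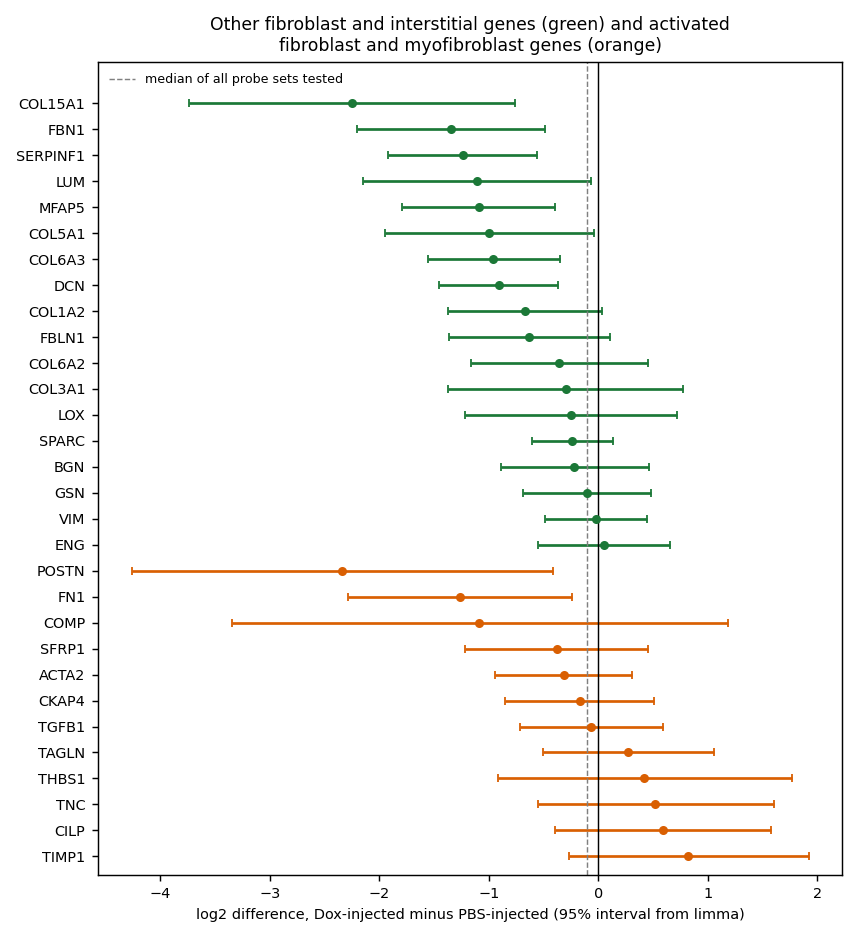
Log2 signal of treated minus control piglets for 18 other fibroblast and interstitial genes (green) and 12 genes of activated fibroblasts and myofibroblasts (orange), each at its brightest probe set, with 95% confidence intervals from limma before adjustment; the dashed line is the median of all probe sets, -0.10. All but 1 of the green genes lie below 0, from COL15A1 at -2.25 to ENG at 0.05, and the orange genes span -2.34 for POSTN to 0.82 for TIMP1.

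Downstream of the PDGF receptors, 7 of 19 listed genes had a probe set, and none of the 4 ligand genes did. Of the 7, 6 were lower, with a median of -0.14 and 1 of the lower genes had an unadjusted p of at most 0.05, against 6.61% of all genes. That gene was NCK1, an adaptor that links receptor kinases to the actin skeleton, with signals of 308, 205.1 and 206.5 against 162.2, 164.1 and 112.7 (log2 difference of -0.71, standard error 0.25, limma adjusted p = 0.521). SHC1, an adaptor that passes receptor signals to RAS, was 31.4, 20.2 and 21.1 against 15.9, 17.4 and 18.8 (log2 difference of -0.45, limma adjusted p = 0.643). The transcription factor gene STAT3 differed by 0.26 and the kinase gene MAPK3 by -0.46, both with overlapping groups. Among the collagen receptors, 3 of 8 listed genes had a probe set and none passed. DDR1, the epithelial relative of DDR2, differed by 0.05 and its sign turned in fits without 1 array. The integrin chain gene ITGB1 differed by -0.17, and ITGA2, at 0.0 to 1.4, was within the Tag range on all arrays. In the S100 family, 9 of 15 listed genes had a probe set, and S100A4 did not share the direction of the 3 with an unadjusted p of at most 0.05, all higher, where 4.92% of all genes were higher with such a p. The groups did not overlap for these 3 either, against 9.06% of all genes in that direction. These were S100A8, S100A9 and S100A12, which neutrophils carry, with S100A8 above the Tag range on 4 of 6 arrays and S100A12 on only 2. S100A9 had signals of 9.2, 7.8 and 27.5 against 56.9, 681.5 and 185.9 (log2 difference of 3.94, standard error 0.84, limma adjusted p = 0.521).

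Markers of other cells also differed between the groups in their means, and their part in the fibroblast values was not tested. Of 8 measured pericyte and smooth muscle genes, 6 were lower, with a median log2 difference of -0.41 that was -0.11 without PBS replicate 1. From limma, 1 of the 8 was lower with an unadjusted p of at most 0.05, against 6.61% of all genes. The groups did not overlap for 1 of the 8, lower, against 10.4%. KCNJ8, a potassium channel subunit gene of pericytes, had signals of 233, 247.1 and 237.2 in controls and 170.8, 90.2 and 80.6 in treated piglets (log2 difference of -1.15, standard error 0.30, limma adjusted p = 0.521), although its 2 further probe sets gave -1.02 and -0.17. RGS5, a pericyte regulator of G protein signals, differed by -0.65, the adhesion molecule gene MCAM by -0.51 and the TIE2 ligand gene ANGPT1 by -0.82, all with overlapping groups. ANGPT1 was above the Tag range on 3 of 6 arrays. Of 9 measured endothelial genes, 7 were lower, with a median of -0.56 that was -0.31 without PBS replicate 1 and -0.35 without Dox replicate 3. The endothelial receptor gene TIE1 differed by -1.29 and the cadherin gene CDH5 by -0.65. These were the 2 of 9 whose groups did not overlap, both lower, against 10.4% of all genes. From limma, 2 of the 9 were lower with an unadjusted p of at most 0.05, against 6.61%. TEK, the receptor gene for angiopoietins, differed by -0.56, the tight junction gene CLDN5 by -0.72 and the adhesion gene PECAM1 by -0.14, each with overlap. The 2 genes above 0 were VWF, the von Willebrand factor gene, at 0.15, and the TGF-beta co-receptor gene ENG, named after its values were seen, at 0.05. The summed endothelial signal was 1562.7 to 2361 in controls and 1439.9 to 1479.1 in treated animals, and the summed pericyte and smooth muscle signal 3106.4 to 4721.7 against 2878.7 to 3643.1. PBS replicate 1 had the highest median of the 6 arrays in the fibroblast marker, wider fibroblast, activated, pericyte and endothelial lists, as the plot of list medians by array shows. The lower values were thus not a feature of the fibroblast lists alone, and no difference between the lists was tested.

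Of 13 measured leukocyte genes, 8 were higher and 5 lower, with a median of 0.19 and a summed signal of 1163.6 to 1508.9 in controls and 1148.7 to 1536.9 in treated animals. The pan-leukocyte gene PTPRC had signals of 0.5 to 6. The macrophage receptor gene CD163 differed by 0.57, the class II invariant chain gene CD74 by -0.65 and the macrophage gene AIF1 by -0.63. Of 9 measured T cell genes 8 were lower, but none was above the Tag range on all arrays. CD3D had signals of 0.5 to 2.4, and the summed T cell signal was 28.1 to 50.3 in controls against 19.2 to 35.6. The cardiomyocyte list had 12 of 13 measured genes above 0 with a median of 0.31, which was -0.01 with quantile normalization. Of the 13, 3 were higher with an unadjusted limma p of at most 0.05, against 4.92% of all genes. The groups did not overlap for 6 of the 13, all higher, against 9.06% of all genes. The summed cardiomyocyte signal was 51816 to 64920.3 in controls and 69739.3 to 96095.3 in treated animals, highest on Dox replicate 3. At the brightest probe sets that array had the lowest THY1, FAP, S100A4 and PDGFRL, but not the lowest PDGFRB, TCF21 or DPT. A link between the cardiomyocyte sum and the markers was not tested. The sum includes the natriuretic peptide genes NPPA and NPPB, which differed by 2.14 and 3.67 with overlapping groups. Without them, a choice made after the values were seen, the sum was 51529.4 to 62225.3 in controls and 62985.5 to 81919.5 in treated animals. These sums did not overlap, although the highest control lay close to the lowest treated animal. The muscle creatine kinase gene CKM differed by 0.37.

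**Figure D4:**
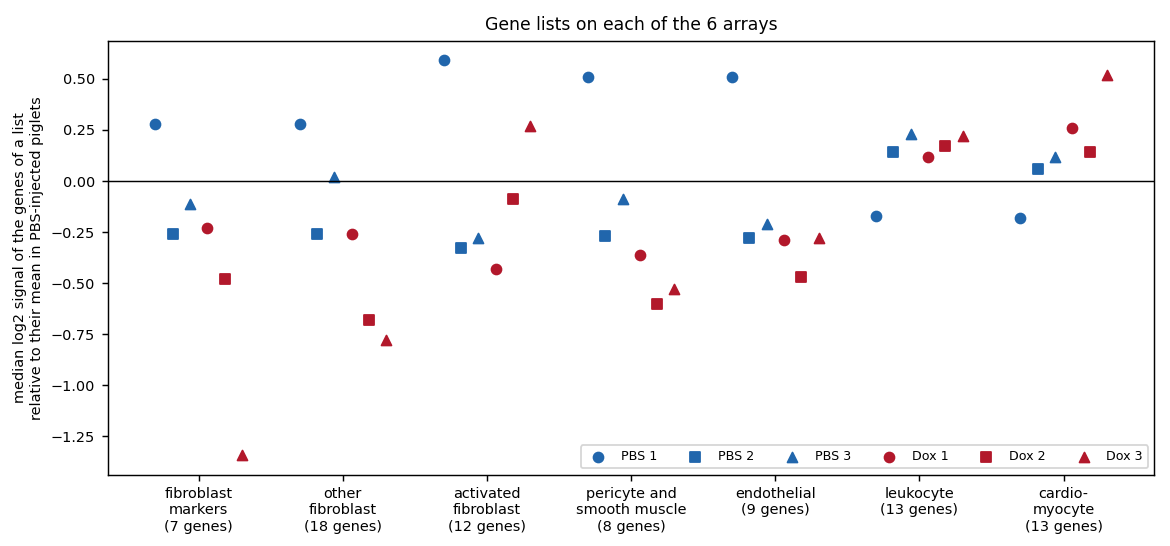
Median log2 signal of the genes of 7 lists on each of the 6 arrays, relative to each gene's mean in PBS-injected piglets; blue symbols are PBS and red symbols Dox arrays, with replicates 1 to 3 as circle, square and triangle. The fibroblast markers run from 0.28 on PBS replicate 1 to -1.34 on Dox replicate 3, and the cardiomyocyte list from -0.18 to 0.52 on the same arrays.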

How the data were processed

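The authors deposited linear intensity values, which GCOS (version 1.4 per the labels) had summarised by the MAS5 algorithm. The 2% trimmed mean of each array was 100.03 or 100.04. Of 24123 probe sets, 124 controls were left out. Before taking log2, zeros were set to 0.1, the lowest nonzero signal. Group differences were fitted with limma 3.58.1 (R 4.3.3; lmFit, eBayes with trend) using all 6 arrays with no covariate, and adjusted by Benjamini-Hochberg over 23999 probe sets. Of these, 10069 have 1 gene symbol, 198 several and 13732 none in the platform annotation. Calls required a 2-fold change with an adjusted p no higher than 0.05, as in the methods. For companion lists each gene was read at its brightest probe set (geometric mean over the arrays). Named genes were all member probe sets and up to 4 genes of each list with the smallest p. The first 3 measured genes of each cell type list could also be named, and any other gene is marked as chosen after its values were seen. The members and lists were chosen with earlier results of these data known. The script was tested on simulated data. Alternatives were quantile normalization, an offset, a filter on dim probe sets, no trend, array weights, a block for the replicate number, the t-test of the methods (log2 or linear scale), 1 probe set per gene, an unadjusted threshold and leaving out each array. Exact two-sided permutation tests for single probe sets used scipy 1.17.1. Animals are separate, per the labels. MAS5 background correction and scaling were kept, and scanner files were not used here. Plots were made in Python 3.11.15 (matplotlib 3.10.9).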

Additional observations from a re-analysis of the deposited data

How the results depend on the processing

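No alternative called a fibroblast marker probe set at the threshold. With no fold minimum, 3 of the 11 passed an unadjusted p of at most 0.05, the first and second of THY1 and that of FAP. Over all probe sets the count was 0 under each alternative except without Dox replicate 1, where it was 14; with 1 array left out it ran from 0 to 14. The median log2 difference of the 11 probe sets, -0.87 as reported, was -0.30 with an offset of 10, -0.43 over the 6 probe sets left by the filter on dim ones and -0.56 with 1 probe set per gene. With 1 array left out it ran from -1.06 to -0.39, the latter without Dox replicate 3, and was -0.44 without PBS replicate 3. Of 149 values of single member probe sets under the alternatives, 143 kept the sign reported and 6 did not. The brightest PDGFRB probe set was -0.02 with quantile normalization and ran from -0.09 to 0.16 with 1 array left out, and the third THY1 probe set from -2.16 to 0.08. Among the companion genes, array weights gave -0.21 for DDR1 and 0.04 for FABP4. With 1 array left out the difference ran from -0.21 to 0.32 for DDR1, -0.78 to 0.02 for MAPK3, -0.82 to 0.04 for MCAM, -0.78 to 0.45 for UPK1B, -0.19 to 1.52 for ADIPOQ and -0.16 to 0.12 for FABP4. The median of the wider fibroblast list stayed between -0.81 and -0.49. Quantile normalization moved the median over all probe sets from -0.100 to -0.004. The study speaks of its failing and non-failing samples as 3 pairs, and the labels name no pairs. The correlation of deviations from the group means was -0.006, 0.024 and -0.055 for replicate numbers 1 to 3. For the other combinations of a PBS and a Dox array it was -0.044 to 0.042. With 3 arrays a group, each centred on its own mean, these values cannot exclude a pairing. With the replicate block the count of called probe sets was 0 and the median over the members -0.87. Signals near the Tag range limit what S100A4 and the dimmer THY1, PDGFRB and PDGFRL probe sets can show.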

Other observations

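KRT8, a keratin gene read here as one of 5 measured epicardial and mesothelial genes, had signals of 17.5, 54 and 63.5 in PBS-injected and 154.8, 210.7 and 296.2 in Dox-injected piglets at its brightest probe set. Every treated piglet lay above every control, a pattern seen for 9.06% of all genes. KRT8 had the smallest p of its list, and its log2 difference was 2.44 (standard error 0.49, adjusted p = 0.521 from limma). All 6 signals of the further KRT8 probe set were within the Tag range. The epicardial factor gene WT1 had signals of 3.1 to 6 and a log2 difference of 0.42 (adjusted p = 0.774 from limma), and of the 5 genes only 1 was above the Tag range on all arrays, so nothing is read from the median of that list. In the Schwann cell list, S100B had signals of 51.3, 84.2 and 113.7 against 58.2, 50.4 and 15.1, and SOX10 signals of 2.7, 1.4 and 3.3 against 5.4, 4.3 and 9.4. SOX10 was above the Tag range on only 3 of 6 arrays, and no fold is read from it. S100B differed by -1.16 (adjusted p = 0.533 from limma), and MBP, the third measured gene of the list, had signals of 38.7 to 229.3 on the Dox arrays and 19 to 173.6 on the PBS arrays. Of 5 measured adipocyte genes, FABP4 differed by -0.03 and LPL, the lipoprotein lipase gene, by 0.50 (adjusted p = 0.523 from limma). PPARG, the adipocyte transcription factor gene, differed by -0.62 (adjusted p = 0.598 from limma).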
